A study of Mus musculus with 12 samples.

Results

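The transcripts of 42 cell cycle genes were followed in natural killer (NK) cells and CD8 T cells that had been sorted from mouse tumours. The genes were taken by name from the count table, which held 54232 genes, and were split by role into 17 genes of S phase, the period of DNA replication, and 25 genes of mitosis and its preparation. All 42 passed the filter on low counts, as did 13279 genes in all. The rule names genes by function and uses no measured value, although it was written with earlier results of these data known.

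A dividing cell first licenses its replication origins, when CDC6 and CDT1 load the ring-shaped MCM helicase onto DNA. Cyclin E then drives entry into S phase, and ribonucleotide reductase, thymidylate synthase and thymidine kinase supply nucleotides while PCNA, the sliding clamp, holds the polymerases on the template. Genes of mitosis are transcribed later, under FOXM1 and the CHR element, and encode cyclin B and its kinase CDK1, the Aurora and Polo kinases, the spindle checkpoint, the mitotic kinesins and the proteins that the anaphase-promoting complex uses to end mitosis. CD8 T cells are known to divide rapidly after they meet antigen, whereas NK cells leave the bone marrow as cytotoxic cells that divide in response to cytokines.

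MC38 cells, a mouse colon adenocarcinoma line, had been injected under the skin of both flanks, and tumours were taken 8 to 10 days later. NK cells were sorted as CD45+ CD3ε- NK1.1+ and CD8 T cells as CD45+ CD3ε+ CD8a+, with 300 cells in each library. The mice were wild type (WT, C57BL/6N), had the knockout allele Tyk2tm1Biat (KO) or Tyk2tm3.1(K923E)Biat (KE), whose product, the Janus kinase TYK2, is made but has no kinase activity. Mice were 6 to 12 weeks old and matched for sex and age, no treatment was labelled, and the Tyk2 alleles are not restricted to 1 cell type of the host, whereas the tumour cells were of the injected line.

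Each of the 6 groups held 2 libraries, 12 in all, with 10378761 to 14732882 counts and 12776 to 14015 genes detected per library. Whether the 2 libraries of a group came from separate mice, and whether an NK and a CD8 library shared a tumour, is not labelled, so p-values measure the spread between these libraries only. Levels are given as CPM, counts scaled so that all libraries have the same fixed total, and a count of 0 allows an expected level of up to 3 counts, which was 0.204 to 0.289 CPM per library. This floor covers counting error only. The summed level of 6 NK markers was 3327 to 7657 CPM in the NK and 119 to 398 CPM in the CD8 libraries, and that of 8 T cell markers was 63.6 to 357 CPM in the NK and 10655 to 15233 CPM in the CD8 libraries. Tyk2 lay at 58.4 and 112 CPM in NK KO and at 61.0 and 75.2 CPM in CD8 KO, against 58.6 and 68.7 CPM in NK WT and 44.2 and 83.7 CPM in CD8 WT. Gene totals do not separate exons, so genotypes are those of the labels. Of 15 macrophage markers, the summed level was 18747 and 17585 CPM in NK WT, 8403 and 287 CPM in NK KO, 243 and 697 CPM in NK KE, and 336 to 1018 CPM in the CD8 libraries. Fewer cells of one type and less RNA per cell cannot be told apart in such bulk libraries.

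The NK libraries held both kinds of transcript at lower levels than the CD8 libraries, and those of mitosis were further below. Summed over the 17 S phase genes, the level was 725 and 782 CPM in NK WT, 918 and 607 CPM in NK KO, and 837 and 1089.7 CPM in NK KE. In CD8 cells it was 3117 and 2036 CPM in WT, 2644 and 3128 CPM in KO, and 3281 and 1802 CPM in KE. The 2 cell types did not overlap. Summed over the 25 mitosis genes, the level was 583 and 212 CPM in NK WT, 125 and 184 CPM in NK KO, and 86.1 and 100.5 CPM in NK KE. In CD8 cells it was 2093 and 3464 CPM in WT, 3001 and 3409 CPM in KO, and 2320.2 and 1017 CPM in KE. NK WT 1 was the highest NK library and CD8 KE 2 the lowest CD8 library, and the cell types again did not overlap.

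**Figure D1:**
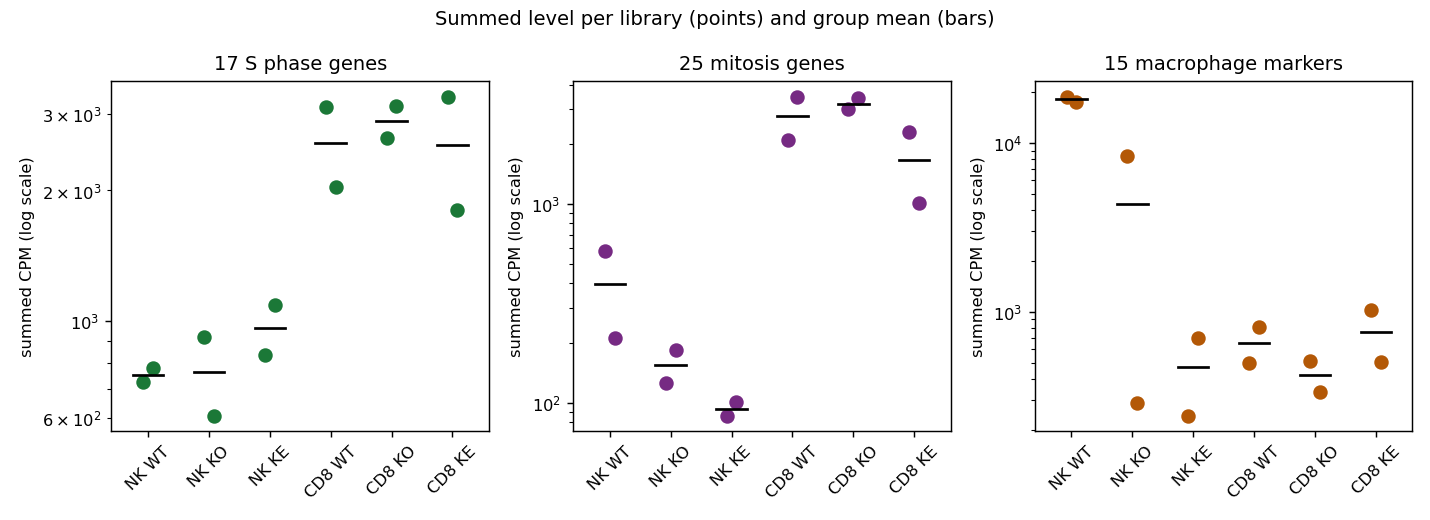
Summed CPM (log scale) of the 17 S phase genes, the 25 mitosis genes and 15 macrophage markers, with 1 point per library and a bar at the mean of the 2 libraries of each group. The S phase sums are 607 to 1089.7 CPM in NK and 1802 to 3281 CPM in CD8 cells, the mitosis sums 86.1 to 583 CPM and 1017 to 3464 CPM, and the macrophage sums are highest in both NK WT libraries and NK KO 1.

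The balance between the 2 kinds of transcript also differed in level. Divided by gene length, the mitosis sum was 0.0654 to 0.706 times the S phase sum in the NK libraries, with a median of 0.167. In the CD8 libraries the ratio was 0.587 to 1.58, with a median of 0.808. NK WT 1, at 0.706, was the only NK library within the CD8 range. Cenpa alone made up much of the NK mitosis sums per kb. As group means it held 64.6 of 128.5 CPM per kb in NK WT, 22.4 of 52.1 in KO and 15.1 of 29.7 in KE. In CD8 cells it held 227 of 984 in WT, 281 of 1090 in KO and 144 of 546 in KE. A level of at least 10 CPM was reached by 8 to 13 of the 17 S phase genes in the NK libraries and by 14 to 16 in the CD8 libraries. For mitosis, 13 of the 25 genes reached it in NK WT 1 and 3 to 7 in the other 5 NK libraries, against 20 to 24 in the CD8 libraries. Taken as the mean over 3 groups, the level per kb of a gene in NK cells was a median of 22.2% of its level in CD8 cells for S phase and 4.88% for mitosis. The highest shares were 88.6% for Cdt1 among S phase genes and 36.6% for Foxm1 among mitosis genes. That of Foxm1 rested on NK WT 1, with 316 counts against 0 in its replicate, and was 9.46% without that library. The NK groups had 3 counts or fewer of Mcm10 and of Nusap1, which allows shares of up to 0.600% and 0.110%.

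**Figure D2:**
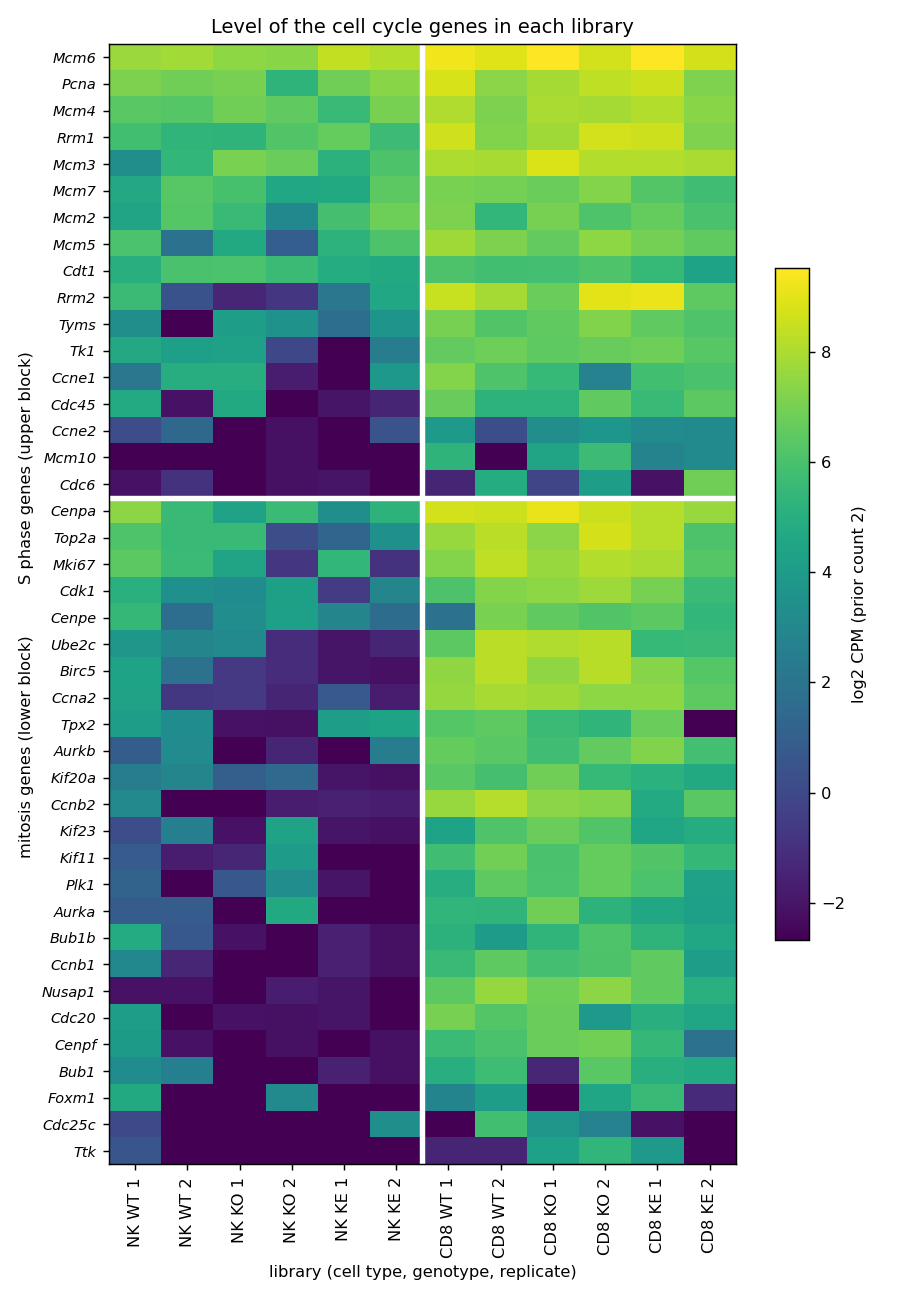
Level of each of the 42 genes in each of the 12 libraries as log2 CPM with a prior count of 2, S phase genes above and mitosis genes below the white line, NK libraries to its left and CD8 libraries to its right. Mcm6 and Pcna are well above the floor in all 12 libraries, whereas Nusap1, Ccnb1 and Ccnb2 are near the floor in most NK libraries and high in the CD8 libraries.

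The 3 NK groups were compared as a mean with the 3 CD8 groups in edgeR. A gene was called when its false discovery rate (FDR, adjusted over all genes tested) was under 0.05 and it differed at least 2-fold. Of the 42 genes 26 were called, all lower in NK cells, where 2.5% of all genes tested were called lower and 4.47% in either direction. They were 7 of the 17 S phase genes and 19 of the 25 mitosis genes. All 42 log2 fold changes were negative, with a median of -2.27 for S phase and -6.21 for mitosis, beside 0.034 over all genes tested. With groups at 3 counts or fewer set to that floor, the medians were -2.19 and -5.83. All 6 NK libraries lay below all 6 CD8 libraries for 8 S phase and 12 mitosis genes, where 2.5% of all genes tested did so, and for no gene did they all lie above.

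**Figure D3:**
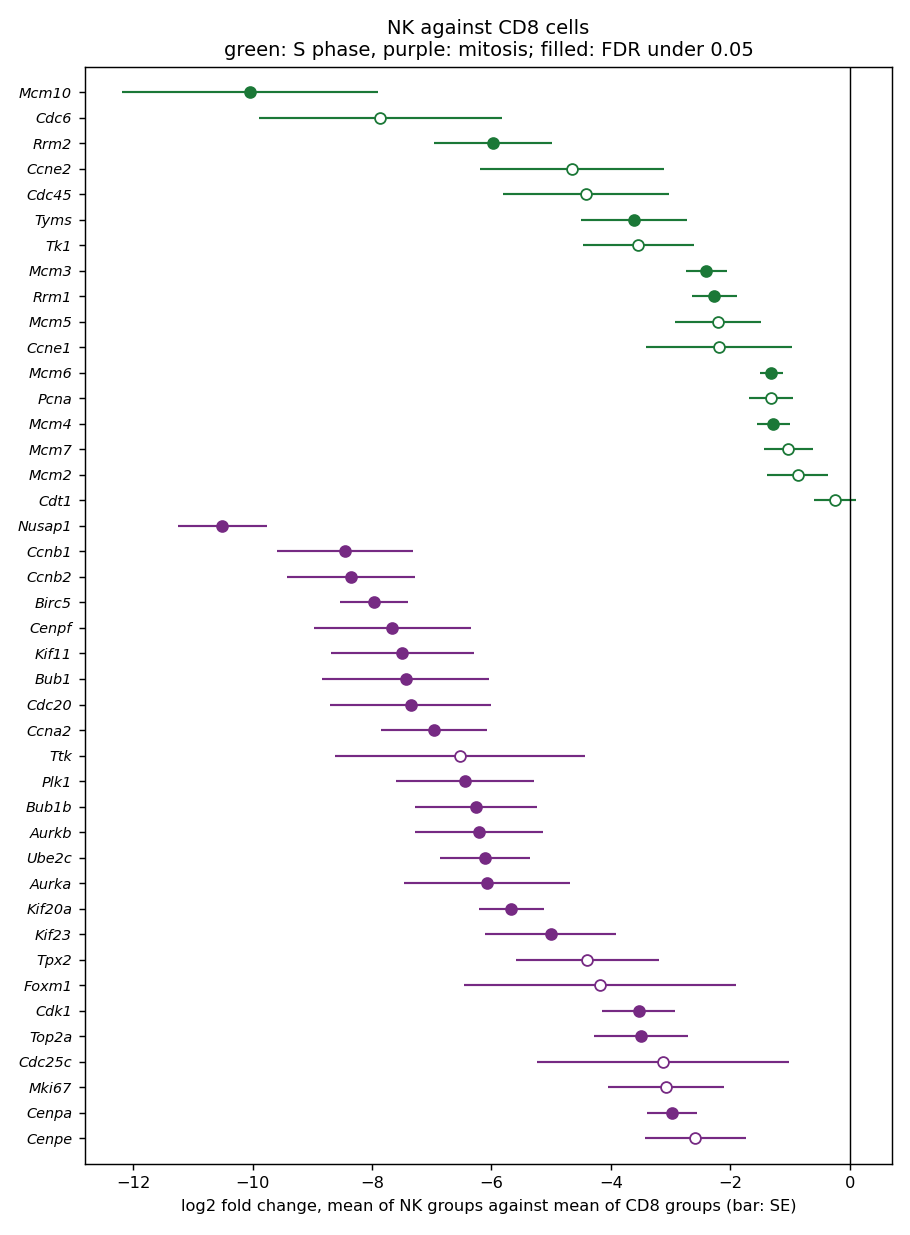
Log2 fold change of each gene, mean of the NK groups against mean of the CD8 groups, with bars of 1 standard error from edgeR, S phase genes in green and mitosis genes in purple. Filled points mark the 26 called genes, and all 42 points lie below 0, from -10.51 for Nusap1 to -0.25 for Cdt1.

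Subunits of the MCM helicase kept 24.0% to 64.0% of their CD8 level in NK cells, per kb. Mcm6 (chr1:128331590-128359664, minus strand, GRCm38) lay at 173 to 357 CPM in the NK libraries with a median of 211 and 402 to 720 CPM in the CD8 libraries with a median of 509. It was lower in NK cells by a log2 fold change of -1.32 ± 0.19 (SE, FDR 0.00262 in edgeR). Mcm3 ranged from 9.61 to 137 CPM in NK, median 57.2, and from 239 to 447 CPM in CD8 libraries, median 257 (log2 fold change -2.40 ± 0.34, FDR 0.00241). Mcm4 ranged from 50.7 to 136 CPM in NK, median 89.9, and from 133 to 275 CPM in CD8 libraries, median 242 (-1.28 ± 0.28, FDR 0.0248), and NK KE 2 lay just above CD8 WT 2. Mcm2, Mcm5 and Mcm7, the other subunits of the ring, were not called. Mcm2 was 21.2, 79.3, 47.9, 8.43, 62.7 and 117 CPM in NK WT 1, WT 2, KO 1, KO 2, KE 1 and KE 2. In the CD8 libraries in the same order it was 126, 40.2, 126, 72.9, 98.9 and 62.4 CPM, so the ranges overlapped widely (-0.88 ± 0.52, FDR 0.425). Mcm5 was 64.7, 3.53, 27.6, 1.89, 38.3 and 71.4 CPM in the NK and 203, 135, 94.1, 177, 123 and 87.9 CPM in the CD8 libraries. The NK libraries were all lower, but their own spread was wide (-2.21 ± 0.72, FDR 0.119).

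Of the loaders and the replisome, Cdt1, which brings the MCM ring to origins, had the smallest fold of the set. It lay at 27.3 to 69.5 CPM in NK libraries, median 42.2, and 19.8 to 71.5 CPM in CD8 libraries, median 56.1 (-0.25 ± 0.35, FDR 0.858). Cdc6, the other loader, was at most 0.384 CPM in NK libraries. In CD8 libraries it was 0.204, 28.5, 0.754, 17.8, 0.0829 and 111 CPM, and it just missed the threshold (-7.86 ± 2.03, FDR 0.0523). Cdc45 had all NK libraries below all CD8 libraries and was not called either (-4.41 ± 1.39, FDR 0.106). Mcm10, which joins the helicase when origins fire, had 1 count in all 6 NK libraries together, in NK KO 2. In CD8 libraries it was 34.9, 0, 21.0, 51.4, 6.80 and 8.42 CPM (called, FDR 0.0325). CD8 WT 2 thus had no count of it either. Pcna was 132, 117, 132, 40.0, 121 and 169.5 CPM in the NK and 399, 162, 233, 332, 387 and 138 CPM in the CD8 libraries. NK KE 2 lay above the 2 lowest CD8 libraries, and Pcna was not called (-1.31 ± 0.37, FDR 0.0731).

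Of the genes of nucleotide supply, Rrm1, Rrm2 and Tyms were called and Tk1 was not. Rrm2, the small subunit of ribonucleotide reductase whose level follows S phase, was 47.2, 1.15, 0.243, 0.472, 4.43 and 25.3 CPM in the NK and 326, 226, 106, 533, 578 and 86.3 CPM in the CD8 libraries (log2 fold change -5.97 ± 0.98, FDR 0.00565). Rrm1, the large subunit, was 38.6 to 104 CPM in NK libraries, median 54.5, and 137 to 418 CPM in CD8 libraries, median 287 (-2.27 ± 0.37, FDR 0.00571). Both genes had NK libraries entirely below the CD8 libraries. Tyms, thymidylate synthase, was 9.53, 0, 17.9, 12, 3.28 and 12.6 CPM in the NK and 118, 71.2, 90.5, 149, 93.5 and 68.1 CPM in the CD8 libraries (-3.61 ± 0.88, FDR 0.0406). Tk1, thymidine kinase, did not overlap between the cell types but missed the threshold (FDR 0.0544). The cyclins E, Ccne1 and Ccne2, were not called, with FDR 0.394 and 0.123.

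Called mitosis genes act at several steps, from mitotic entry to exit. Nusap1 (chr2:119618298-119651244, plus strand), a spindle microtubule protein, had at most 0.157 CPM in any NK library and 31.8 to 185 CPM in the CD8 libraries, median 102 (FDR 2.33e-05). Its locus overlaps Oip5 on the other strand, and it is not stated that counting used strand. Birc5 (chr11:117849251-117855743, plus strand), the survivin subunit of the chromosomal passenger complex, was 20.0, 3.61, 0.487, 0.315, 0.0964 and 0.0785 CPM in the NK libraries. In the CD8 libraries it was 166, 293, 179, 304, 160.4 and 76.2 CPM (-7.97 ± 0.56, FDR 2.27e-05). Its partner kinase Aurkb was 0 to 8.91 CPM in NK and 53.6 to 148 CPM in CD8 libraries, with medians of 0.966 and 86.2 (-6.21 ± 1.07, FDR 0.00728). For all 3 genes the highest NK library lay below the lowest CD8 library.

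Cyclins A and B and the kinase CDK1, which drive entry into mitosis, were called as well. Ccna2, cyclin A, was 0.157 to 19.5 CPM in NK libraries, median 0.474, and 86.9 to 238 CPM in CD8 libraries, median 177 (-6.96 ± 0.89, FDR 0.00123). Ccnb1, cyclin B1, was 7.59, 0.230, 0, 0, 0.193 and 0.0785 CPM in the NK and 42.9, 85.9, 57.4, 69.3, 92.9 and 16.4 CPM in the CD8 libraries (-8.45 ± 1.13, FDR 0.00253). Ccnb2, cyclin B2, reached 7.83 CPM in NK WT 1 and at most 0.193 CPM in the other 5 NK libraries, against 27.7 to 277 CPM in the CD8 libraries (-8.35 ± 1.07, FDR 0.00127). Both cyclins B were thus over the floor in NK WT 1 and at or under 0.230 CPM elsewhere in NK cells. Cdk1, the kinase they activate, had a smaller fold, at 0.578 to 32.5 CPM in NK, median 10.2, and 48.1 to 214 CPM in CD8 libraries, median 139.7 (-3.54 ± 0.62, FDR 0.00759).

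Of the mitotic kinases and the checkpoint, Plk1, Aurka, Bub1 and Bub1b were called, and Ttk, the checkpoint kinase MPS1, was not (-6.53 ± 2.10, FDR 0.129). Plk1, the Polo kinase, was 2.10, 0, 1.46, 10.4, 0.0964 and 0 CPM in the NK and 27.5, 87.3, 65.3, 99.8, 66.9 and 18.7 CPM in the CD8 libraries (-6.44 ± 1.15, FDR 0.00863). Aurka, the centrosomal Aurora kinase, stood at 27.6 CPM in NK KO 2 and at 0 to 1.69 CPM in the other NK libraries, against 17.5 to 114 CPM in the CD8 libraries (FDR 0.0359). NK KO 2 therefore overlapped the lower CD8 libraries. Bub1 and Bub1b, the checkpoint kinase and its partner BUBR1, had NK medians of 0.136 and 0.137 CPM and CD8 medians of 30.7 and 35.1 CPM (FDR 0.0147 and 0.00546). Both overlapped between the cell types, as Bub1 reached 8.96 CPM in NK and was as low as 0.226 CPM in CD8 libraries, and Bub1b reached 27.4 CPM against a CD8 minimum of 15.9 CPM. Cdc20, the activator of the anaphase-promoting complex, was 16.4, 0, 0.0811, 0.0787, 0.0964 and 0 CPM in the NK and 118, 74.7, 103, 14.9, 31.1 and 22.3 CPM in the CD8 libraries (-7.35 ± 1.35, FDR 0.0101). Its single high NK library, NK WT 1, lay within the CD8 range. Ube2c, the ubiquitin-conjugating enzyme of that complex, was 0.0964 to 12.8 CPM in NK and 45.2 to 301 CPM in CD8 libraries, with medians of 3.77 and 173 (-6.11 ± 0.75, FDR 0.00092).

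Among kinesins and centromere proteins, Kif20a, Kif11, Kif23, Cenpa and Cenpf were called and Cenpe was not. Kif20a, a kinesin of the central spindle, was 0.0785 to 7.22 CPM in NK libraries, median 2.39, and 24.8 to 115 CPM in CD8 libraries, median 52.3 (-5.67 ± 0.55, FDR 0.000204). Kif11, which pushes the spindle poles apart, was 0 to 17.7 CPM in NK and 42.2 to 117 CPM in CD8 libraries, and Kif23, of the midzone, 0.0785 to 21.3 and 19.2 to 105 CPM (FDR 0.00628 and 0.0245). The highest NK value of both genes was in NK KO 2. Cenpa, the histone variant of centromeres, had the highest NK median of the 25 mitosis genes, with 10.8 to 164 CPM in NK libraries and a median of 43.4, against 188 to 548 CPM in CD8 libraries and a median of 373 (-2.98 ± 0.42, FDR 0.00238). Cenpf, of the outer kinetochore, was at or under 0.0785 CPM in 5 NK libraries and at 15.1 CPM in NK WT 1, against 3.30 to 124 CPM in the CD8 libraries (FDR 0.00714).

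Top2a and Mki67 are widely used as markers of dividing cells. Top2a, topoisomerase II alpha, was 68.0, 47.6, 48.0, 1.10, 2.41 and 11.3 CPM in the NK and 183, 299, 165, 427, 286 and 66.6 CPM in the CD8 libraries (-3.50 ± 0.78, FDR 0.0272). Mki67, which encodes the Ki-67 antigen, was 83.9, 49.8, 22.2, 0.472, 43.3 and 0.392 CPM in the NK and 138, 318, 193, 278, 253 and 74.4 CPM in the CD8 libraries. NK WT 1 exceeded CD8 KE 2 for both, and Mki67 was not called (-3.07 ± 0.97, FDR 0.107). Calls of 9 genes (Mcm4, Mcm10, Tyms, Top2a, Cdc20, Bub1, Aurka, Plk1 and Kif23) were lost in at least 1 alternative or without 1 library. The other mitosis genes not called were Tpx2, Cenpe, Ttk, Foxm1 and Cdc25c, with FDR of 0.0641 to 0.509.

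A setting chosen after seeing the data left out NK WT 1, NK WT 2 and NK KO 1, the NK libraries with the most macrophage transcripts, and with them the WT groups, while the other 3 NK libraries still held 243 to 697 CPM of these transcripts. The KO and KE groups of the cell types were then compared, 21 of the 42 genes were called, all lower in NK cells, and the medians were -3.41 for S phase and -6.82 for mitosis beside -0.16 over all genes. In that setting 2.38% of all genes tested were called. The share of counts from mitochondrial genes also moved with cell type, at 2.40% to 4.64% in the NK and 4.50% to 7.68% in the CD8 libraries, and its part in the difference was not tested.

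Between WT libraries alone 3 of the 42 genes were called, all lower in NK cells, where 0.776% of all genes tested were called and 0.429% lower. They were Nusap1 (0.0808 and 0.0768 CPM against 78.3 and 185 CPM, FDR 0.00333), Birc5 (-4.31 ± 0.78, FDR 0.0343) and Mcm3 (9.61 and 41.5 CPM against 240 and 239 CPM, -3.30 ± 0.61, FDR 0.0385). The mitosis median was -3.60 and the S phase median -2.34, beside 0.0073 over all genes. The median log2 fold changes of the 2 lists thus lay closer together in WT than over the 3 genotypes. Without NK WT 1 the mitosis median was -4.59. Without NK WT 2, CD8 WT 1 and CD8 WT 2 it was -3.12, -3.25 and -2.64.

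The promoters of the 2 lists carry different words. Of 42 genes 34 matched a RefSeq promoter of GRCm38.p6, taken from 250 bases before to 50 after the start, 15 of S phase and 19 of mitosis. Both strands were searched for the CHR element TTTGAA, for the CCAAT box and for the E2F words TTTCCCGC, TTTGGCGC, TTTCGCGC and TTTGCCGC, which can overlap one another on opposite strands. The CHR word stood in 14 of 19 mitosis promoters (73.7%) and in 2 of 15 S phase promoters (13.3%), beside 20.2% of 27025 genes. An E2F word stood in 6 of 15 S phase promoters (40.0%) and in 1 of 19 mitosis promoters (5.26%), that of Cdk1, beside 2.6% of all genes. The CCAAT box was common in both, in 10 and 17 promoters, beside 41.1% of all genes. Of the 14 mitosis genes with a CHR word 12 were called lower in NK cells, and of the 5 without one 4 were. A match is a description of letters and not a shown binding site. The following sequences are the 200 bases before the start of the genes with the smallest FDR, in NK against CD8 cells, among those that hold the word of their list there and overlap no annotated exon. They are written from 5′ to 3′ along the gene, with each match in capitals, and show the CHR word beside the CCAAT boxes in mitosis genes (Ccnb2, Kif11, Top2a) and the E2F words in MCM genes (Mcm6, Mcm5).
Ccnb2, chr9:70421555-70421754, minus strand: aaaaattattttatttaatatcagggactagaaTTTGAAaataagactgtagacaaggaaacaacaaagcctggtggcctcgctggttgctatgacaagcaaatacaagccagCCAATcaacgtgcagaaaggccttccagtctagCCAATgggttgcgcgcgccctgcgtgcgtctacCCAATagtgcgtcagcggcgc
Kif11, chr19:37376182-37376381, plus strand: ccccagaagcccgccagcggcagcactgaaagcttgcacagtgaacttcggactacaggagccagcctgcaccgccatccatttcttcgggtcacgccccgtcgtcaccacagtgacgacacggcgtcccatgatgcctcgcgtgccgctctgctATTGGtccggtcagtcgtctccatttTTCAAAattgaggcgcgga
Top2a, chr11:99024190-99024389, minus strand: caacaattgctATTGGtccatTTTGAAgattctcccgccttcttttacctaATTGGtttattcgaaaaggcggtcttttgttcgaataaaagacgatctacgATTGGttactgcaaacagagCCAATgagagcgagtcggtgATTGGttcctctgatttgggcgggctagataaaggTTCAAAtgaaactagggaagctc
Mcm6, chr1:128359706-128359905, minus strand: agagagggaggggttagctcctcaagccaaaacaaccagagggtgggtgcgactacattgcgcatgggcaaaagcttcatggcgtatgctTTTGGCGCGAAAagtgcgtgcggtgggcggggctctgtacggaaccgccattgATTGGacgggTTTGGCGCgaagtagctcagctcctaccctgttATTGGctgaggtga
Mcm5, chr8:75109309-75109508, plus strand: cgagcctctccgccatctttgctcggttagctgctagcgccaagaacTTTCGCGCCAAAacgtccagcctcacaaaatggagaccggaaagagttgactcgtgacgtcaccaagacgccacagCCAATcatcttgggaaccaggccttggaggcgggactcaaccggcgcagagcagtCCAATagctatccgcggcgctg

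**Figure D4:**
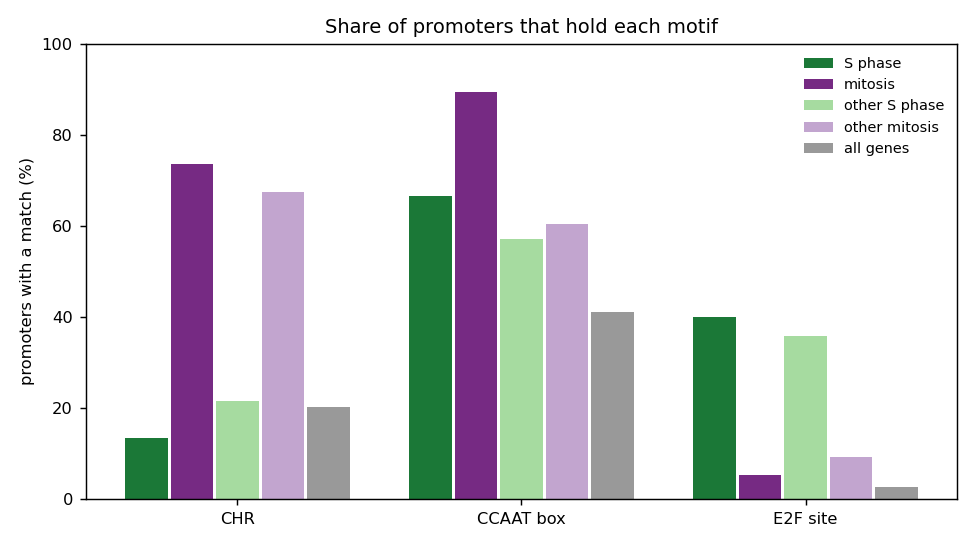
Share of promoters (%) that hold the CHR word, the CCAAT box or an E2F word, for the 15 S phase and 19 mitosis genes with a promoter, for 28 and 43 other genes of the same phases, and for all 27025 genes. The CHR word is in 73.7% of the mitosis and 13.3% of the S phase promoters, and an E2F word in 5.26% and 40.0%.

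Within NK cells the question was whether loss of TYK2, or of its kinase activity, went with other levels of these genes. No member was called in KO or KE against WT, and edgeR called 0 of all genes tested in either comparison (0%). At an unadjusted p under 0.05 there were 13 members in KO, 11 mitosis genes lower, 1 S phase gene lower and 1 higher, where 3.98% of all genes were lower and 2.33% higher. In KE there were 17, 16 mitosis genes and 1 S phase gene, all lower, where 3.95% of all genes were. DESeq2 called 14 members in KO, 12 of them lower, and 12 in KE, all lower, where it called 2.85% and 2.91% of all genes. The mitosis median was -2.65 in KO and -4.89 in KE, or -2.05 and -3.66 with groups at the floor set to it, and the S phase median was -0.29 and 0.094, beside -0.0088 and 0 over all genes.

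**Figure D5:**
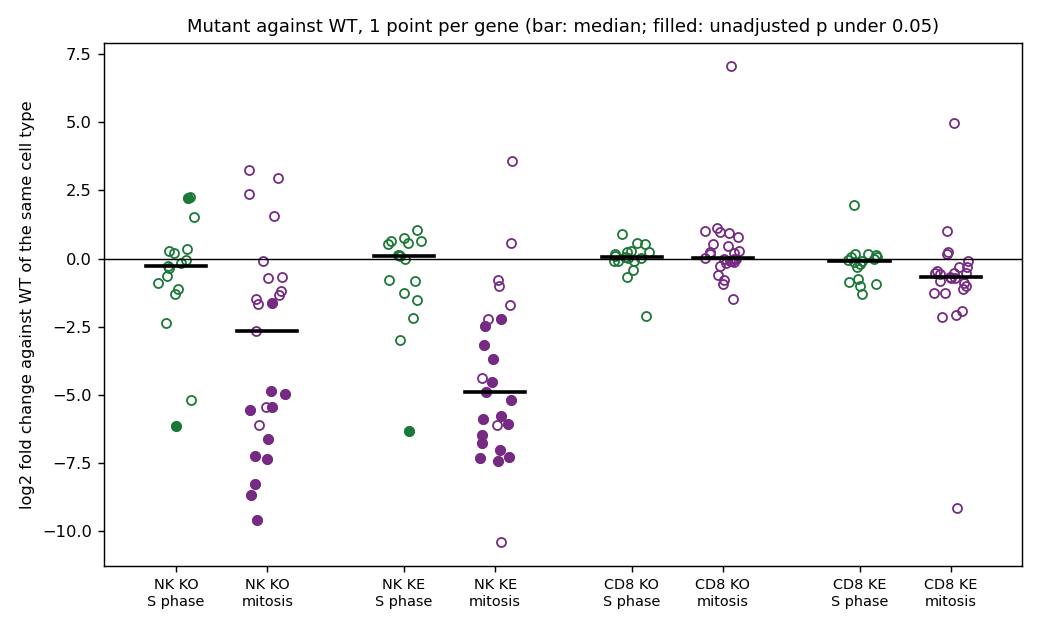
Log2 fold change of each gene in KO or KE against WT of the same cell type, with S phase genes in green, mitosis genes in purple, bars at the median and filled points at an unadjusted p under 0.05 in edgeR. The mitosis medians are -2.65 and -4.89 in NK KO and KE and 0.016 and -0.67 in CD8 KO and KE, and no gene passed the FDR threshold.

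Much of this lower mitosis median rested on the library NK WT 1. Without it the median was -0.42 in KO and -1.04 in KE, so the mitosis values of NK WT 1, with a sum of 583 CPM against 212 CPM in its replicate, set most of the size. Without NK KO 1 or NK KO 2 the median in KO was -5.08 or -5.29, and without NK WT 2 the median in KE was -5.55. Birc5 had the smallest p in both comparisons, at 20.0 and 3.61 CPM in WT, 0.487 and 0.315 CPM in KO, and 0.0964 and 0.0785 CPM in KE. Both WT libraries lay above all 4 mutant libraries (KO -4.96 ± 0.87, FDR 0.275, and KE -7.04 ± 1.03, FDR 0.140). Kif20a was 5.17 and 7.22 CPM in WT, 1.95 and 2.83 CPM in KO, and 0.0964 and 0.0785 CPM in KE (KE -6.09 ± 1.01, FDR 0.165). Ube2c was 12.8 and 7.22 CPM in WT, 8.93 and 0.315 CPM in KO, and 0.0964 and 0.235 CPM in KE (KE -5.90 ± 1.39, FDR 0.358). These 3 genes kept both WT libraries above both KE libraries. Bub1b was 27.4 and 1.46 CPM in WT, 0.0811 and 0 CPM in KO, and 0.193 and 0.0785 CPM in KE, and Ccnb1 was over the floor in NK WT 1 only (KO, FDR 0.499 and 0.569).

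Both mutant libraries lay below both WT libraries for 8 of 25 mitosis genes in KO, where 16.7% of all genes did so, and for 13 of 25 in KE, where 16.9% did. Both lay above for 0 and 1, where 18.8% of all genes did so in each comparison. Among the 17 S phase genes KO lay below for 4 and above for 3, and KE below for 1, Tk1, and above for 1, Mcm6. The summed count over a group was 3 or fewer for 2 members in NK WT, 14 in NK KO and 16 in NK KE. The macrophage transcripts moved with the same groups, at 18747 and 17585 CPM in WT and 243 to 8403 CPM in the mutants, and their part in the mitosis difference was not tested. By library, NK WT 1 had the highest macrophage sum of the NK libraries, 18747 CPM, and the highest mitosis sum, 583 CPM, and NK KE 1 the lowest of both, 243 and 86.1 CPM. The macrophage and mitosis sums were 17585 and 212 CPM in NK WT 2, 8403 and 125 CPM in NK KO 1, 287 and 184 CPM in NK KO 2, and 697 and 100.5 CPM in NK KE 2.

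KO against KE in NK cells gave no call among 42 members (0% of all genes). At an unadjusted p under 0.05 there were 11 members, 6 mitosis genes higher in KO where 1.75% of all genes were, 1 S phase gene higher, and 2 mitosis and 2 S phase genes lower, where 2.04% of all genes were. Kif20a (log2 fold change 4.62 ± 0.96, FDR 0.729), Kif11 (0.243 and 17.7 CPM in KO, 0 in both KE libraries) and Ube2c had the smallest p. Kif11 in KO came mostly from NK KO 2, as did Aurka, Kif23 and Plk1, at 27.6, 21.3 and 10.4 CPM. DESeq2 called 9 members, 2 lower and 7 higher in KO, and 1.54% of all genes. The mitosis median was 0.71, or 1.68 with groups at the floor set to it and the 7 genes at the floor in both groups left out. It was 0 without NK KO 2, 1.15 without NK KE 1 and 1.74 without NK KE 2.

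In CD8 cells no member was called in KO or KE, where 0.0527% and 0.0828% of all genes were. DESeq2 called no member either, where it called 1.76% and 2.47% of all genes. No member had an unadjusted p under 0.05 in either, where 2.28% of all genes were higher and 2.54% lower in KO, and 2.54% and 3.02% in KE. Both KO libraries lay below both WT libraries for 1 S phase and 2 mitosis genes (13.8% of all genes) and above for 1 and 5 (18.6%). The S phase medians were 0.068 in KO and -0.11 in KE, and the mitosis medians 0.016 and -0.67, beside 0 over all genes. The KO medians changed sign with single libraries, S phase from -0.23 without CD8 KO 2 to 0.57 without CD8 WT 1, and mitosis from -0.32 without CD8 WT 1 to 0.64 without CD8 WT 2. The smallest p in KO was that of Ttk, at 0.204 and 0.212 CPM in WT and 19.4 and 41.9 CPM in KO (FDR 0.887). In KE, Ttk was 14.6 and 0 CPM. Cdc25c, the phosphatase that activates CDK1, had the smallest p in KE, at 0 and 55.2 CPM in WT against 0.0829 and 0 CPM in KE (FDR 0.792), and its 2 WT libraries themselves lay at both extremes.

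CD8 KE had the lowest mean mitosis sum of the 3 CD8 groups (1669 ± 921 CPM, SD, n = 2, beside 2778 ± 969 in WT and 3205 ± 288 in KO), within a wide spread. Ube2c was 79.2 and 300 CPM in WT, 266 and 301 CPM in KO, and 45.2 and 46.2 CPM in KE (KE against WT -2.08 ± 1.05, FDR 0.792). Kif20a was 77.5 and 58.5 CPM in WT, 115 and 46.2 CPM in KO, and 34.1 and 24.8 CPM in KE. For these genes both KE libraries lay below the other 4. KE lay below WT for 8 of 25 mitosis genes, where 15% of all genes did so, and below KO for 14 of 25, where 15.8% did. Of the 17 S phase genes KE lay below WT for 4 and above for 1 (17.3% of all genes), and below KO for 5 and above for 1 (13.2%). KO against KE gave 0 calls in edgeR (0% of all genes) and 0 in DESeq2, which called 1.18% of all genes. At an unadjusted p under 0.05 in edgeR there was 1 member, Ube2c (2.60 ± 1.07, FDR 1), where 1.94% of all genes were higher. Of the 25 mitosis genes 22 had a higher fitted value in KO, with a median of 0.95. The median was 1.64 without CD8 KE 1 and 0.57 without CD8 KE 2, the library with the lowest mitosis sum. For KE against WT it was -1.60 without CD8 KE 1, -0.32 without CD8 KE 2 and -0.18 without CD8 WT 2. The 3 comparisons within a cell type share libraries and are not independent.

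Whether a mutant differed from WT by another amount in NK than in CD8 cells was tested as an interaction. No member was called for KO, where 0.00753% of all genes were, or for KE (0%), and DESeq2 called 5, of which 4 were lower, and 3, all lower, where it called 1.49% and 2.09% of all genes. At an unadjusted p under 0.05 in edgeR there were 10 for KO, all with the lower effect in NK cells (3.25% of all genes), and for KE 4 lower (3.43%) and 1 higher (2.76%). Birc5 had the smallest p in both, with -4.95 ± 1.08 (FDR 0.536) and -6.03 ± 1.23 (FDR 0.392). Bub1b and Ccnb1 followed for KO (-9.39 ± 2.35 and -8.60 ± 2.56, FDR 0.685 and 0.896), and Kif20a and Bub1b for KE (-4.82 ± 1.2 and -7.02 ± 2.19, FDR 0.493 and 0.737). The mitosis medians were -2.63 and -3.91, and -0.66 and -0.98 without NK WT 1. For KO the median was -4.23, -4.66 and -4.91 without NK KO 1, NK KO 2 and CD8 WT 2. A mutant effect on mitosis genes that differs between the cell types was therefore not shown.

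Libraries of the same group differed, and for mitosis genes they did so more in NK WT than in the CD8 groups. The median absolute difference between the 2 libraries, in log2 CPM, was 2.47 for mitosis genes in NK WT, where 21 of 25 were higher in replicate 1, beside 0.74 over all genes tested. It was 0.603 to 1.06 for mitosis genes in the 3 CD8 groups. In NK KO and NK KE it was 0.960 and 0.565, but 11 and 14 of the 25 genes were at the floor there, which bounds their spread, so these values cannot be set against that of NK WT. In CD8 WT the lists went opposite ways, with 15 of 17 S phase genes higher in replicate 1 and 18 of 25 mitosis genes higher in replicate 2. In CD8 KE 22 of 25 mitosis and 13 of 17 S phase genes were higher in replicate 1.

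Single genes dropped out of single libraries. There were 13 cases, in 10 members, of 0 counts in 1 library and over 100 in its replicate. In NK WT, Tyms, Cdc20 and Foxm1, the transcription factor of mitosis genes, had 118, 203 and 316 counts in replicate 1 and 0 in replicate 2. In NK KO, Cdc45, part of the active helicase, had 335 and 0 counts, and Aurka and Foxm1 had 0 in replicate 1 and 351 and 113 in replicate 2. In NK KE, Ccne1 and Cdc25c had 0 and then 188 and 137 counts. In CD8 cells the cases were Mcm10 (514 and 0) and Cdc25c (0 and 783) in WT, Foxm1 (0 and 268) in KO, and Ttk (176 and 0) and Tpx2, a spindle assembly factor (1294 and 0), in KE. The group values of these genes therefore rest on 1 library each.

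Lists of other genes of the cycle were read against the 2.5% of all genes called lower in NK cells. Of 36 further replication genes 4 were called lower in NK cells, among them Dut, which clears dUTP (-2.37 ± 0.25, FDR 0.000305), and Clspn, Gins2 and Rpa2, and none higher, with a median of -1.13. Of 49 further mitosis genes tested 23 were called lower and none higher, with a median of -5.55. Nuf2, of the kinetochore (-8.31 ± 0.86, FDR 0.000305), Cdca3 and Trip13 had the smallest p. Of 30 regulators of the cycle 4 were called lower, namely Cdk6, Cks1b, the inhibitor of the anaphase-promoting complex Fbxo5, and Gmnn, which blocks CDT1. Of 10 brakes on the cycle none was called, with 1 higher at an unadjusted p under 0.05, Btg2, where 9.35% of all genes were. Between genotypes none of these genes was called in any of the 6 comparisons within cell types by edgeR. Of the further mitosis genes 16 and 14 were lower in NK KO and in NK KE at an unadjusted p under 0.05, where 3.98% and 3.95% of all genes were. In CD8 KO and CD8 KE there were 1 and 3 of 49, where 2.54% and 3.02% of all genes were. Their medians against WT were -2.23, -3.18, -0.21 and -0.73.

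Among the brakes, Cdkn1a, which encodes the cyclin-dependent kinase inhibitor p21, was 187 and 155 CPM in NK WT, 20.2 and 51.1 CPM in NK KO and 19.9 and 25.8 CPM in NK KE. In CD8 cells it was 121 and 43.1 CPM in WT, 0.377 and 36.7 CPM in KO, and 7.96 and 6.88 CPM in KE. Both WT libraries lay above all mutant libraries within each cell type, a separation that 13.8% to 16.9% of all genes had in each single comparison, without a call (NK KE -3.0 ± 1.36, FDR 0.824, and CD8 KE -3.55 ± 1.40, FDR 0.792). The macrophage transcripts also lay higher in NK WT, at 18747 and 17585 CPM, than in the NK mutants, at 243 to 8403 CPM, and their part in the NK values was not tested. Over the 10 brakes the fitted values were lower than in WT for 6 (KO) and 4 (KE) in NK cells and for 4 (KO) and 7 (KE) in CD8 cells, with 0 of them lower at an unadjusted p under 0.05 in either NK comparison and 2 in each CD8 comparison. Cdkn2d, the inhibitor p19 of CDK4 and CDK6, was 304 and 206 CPM in CD8 WT, 54.3 and 115.5 CPM in KO, and 64.6 and 105 CPM in KE (KO -1.69 ± 0.53, FDR 0.887, and KE -1.64 ± 0.53, FDR 0.687). Its NK libraries lay between 67.5 and 150.0 CPM with no such separation.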

How the data were processed

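The authors sorted cells, made cDNA by Smart-seq2 from 500 pg of RNA, trimmed reads with Trimmomatic, aligned them to GRCm38 (mm10) with STAR and used summarizeOverlaps to count uniquely aligned reads over exons. The deposited table gives raw counts per gene and library, without normalization or pooling. Reads carry no molecular identifiers, and genes that overlap others on either strand (among them Mcm7, Cdc45, Ccna2, Cdc20, Kif20a, Nusap1 and Ube2c) may share reads. The labels call the libraries stranded, but whether counting used strand is not given in the sources used here.

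Here, counts were tested with edgeR 4.0.16 under R 4.3.3, by its two-sided quasi-likelihood F-test with robust dispersions after TMM scaling, with 1 mean per group over all 12 libraries, so that 2 libraries per group shared one estimate of spread. The common biological coefficient of variation was 109%. The filter asked for 10 normalized counts or more on average. Adjusted p-values are Benjamini-Hochberg values over every gene that passed, and a standard error is the size of the log2 fold change over the root of F. CPM used library totals, and log2 CPM a prior count of 2. Medians over a list carry no test. DESeq2 1.42.0, other size factors, no filter, a replicate block, fits of the groups compared and leaving out each library were alternatives. The scripts were first tested on simulated data.

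Members and lists were chosen with earlier results of these data known. Library values were given for 10 members picked by name, for up to 3 members with the smallest p per comparison, for called members, and for members with 0 counts in 1 library and over 100 in its replicate. Values of Cdc6, the other loader beside Cdt1, were given as well. Genes outside the 42 were named where called or among the 3 smallest p, and Cdkn1a was described after its values were seen. Groups follow the sample titles. Promoters are from RefSeq, and coordinates of genes from GENCODE.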

Additional observations from a re-analysis of the deposited data

How the results depend on the processing

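Across the alternatives the direction of NK against CD8 cells held, and the counts of called members did not. Without the low-count filter, or with DESeq2, 14 and 14 members were called in NK KO, 13 and 12 in NK KE, 9 and 9 in NK KO against KE, 18 and 15 between WT cell types, 7 and 5 in the interaction for KO and 4 and 3 in that for KE, and without the filter 1 in CD8 KO against KE. The shares of all genes called in these 7 comparisons were 0.346% to 2.27% without the filter, and 1.18% to 6.23% with DESeq2. Between WT cell types 1 member was called in a fit of those groups alone, where 0.781% of all genes were. Over all 3 genotypes 26 members were called with other size factors (4.51% of all genes), 36 without the filter (5.19%) and 37 with DESeq2 (12%). Without the 3 NK libraries rich in macrophage transcripts, a choice made after seeing the data, the S phase median of NK against CD8 cells was -3.41. The causes were not tested.

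Deviations of libraries with the same replicate number correlated weakly between groups (-0.025 to 0.0378). With the large spread between libraries, this does not show that no mouse or tumour was shared. Fitting the replicate numbers as a block left 1 called member between WT cell types (0.572% of all genes) and 21 over all genotypes (3.63%). It called none within cell types, where 0% to 0.0301% of all genes were called.

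Leaving out 1 library at a time moved the medians over these ranges of log2 fold change. For NK KO against WT, S phase lay between -1.55 and -0.018 and mitosis between -5.29 and -0.42. For NK KE against WT, S phase lay between -0.69 and 0.18 and mitosis between -6.02 and -1.04. For NK KO against KE, S phase lay between -1.20 and 0.97 and mitosis between 0 and 1.74. For CD8 KO against WT, S phase lay between -0.23 and 0.57 and mitosis between -0.32 and 0.64. For CD8 KE against WT, S phase lay between -0.64 and 0.52. For NK against CD8 in WT, S phase lay between -2.65 and -1.43 and mitosis between -4.59 and -2.64. For NK against CD8 over all genotypes, S phase lay between -3.21 and -2.09 and mitosis between -7.39 and -6.0. For the interaction for KO, S phase lay between -1.10 and 0.068 and mitosis between -4.91 and -0.66. For the interaction for KE, S phase lay between -0.55 and 0.89 and mitosis between -5.26 and -0.98. For CD8 KO against KE, S phase lay between 0.13 and 0.56 and mitosis between 0.57 and 1.64. Cdc25c in CD8 KE against WT ran from -11.51 to 2.36, the reversal being without CD8 WT 2, which held all of its WT counts.

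With 2 libraries per group and a large spread, a comparison without a call does not show that levels were equal, and members at the floor limit any fold.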
